A study of Mus musculus with 12 samples.

Results

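Fos, Fosb, Fosl2, Jun, Junb, Jund, Atf3, Batf, Egr1 and Klf10 encode transcription factors that cells switch on, or re-balance, early after a stimulus. They were followed in cultured macrophages that received transforming growth factor β (TGFβ), a ligand of Toll-like receptor 2 (TLR2), or both. The 10 genes were found by symbol among the 40847 rows of the count table, and all 10 were present. Of these, 9 passed the filter on low counts and entered the test with 14749 genes in all. Fosb did not pass it.

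The cells were mouse fetal liver alveolar-like macrophages (FLAMs), which are grown from fetal liver as a culture model of the macrophages of the lung's air spaces. All 12 libraries came from cells kept in mouse GM-CSF at 30 ng/ml. Untreated cells had GM-CSF alone, TGFβ cells also had recombinant human TGFβ1 at 20 ng/ml, Pam3 cells had the TLR2 ligand Pam3CSK4 at 25 ng/ml for 18 h, and Pam3+TGFβ cells had both, with 3 libraries in each of the 4 groups. How long the cells had TGFβ before that is not stated in the labels, which list FLAMs as a cell line. The series asked how TGFβ changes what these cells do when TLR2 is activated. Nothing in the labels says that the libraries of a group came from separate animals or separate cultures. The p-values therefore set differences between groups against the spread between these libraries, which may be technical.

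AP-1 is not 1 protein but a family of dimers. A Jun protein pairs through its leucine zipper with another Jun protein, a Fos protein or a protein of the ATF and BATF groups, and the pair binds the TRE (TPA response element) or the CRE (cyclic AMP response element) in DNA. Many of these genes are immediate early genes, meaning that MAP kinases and other pathways turn them on within minutes without new protein synthesis, and their mRNAs usually decay fast, so libraries made 18 h after the ligand show a late level and not the first peak. In macrophages they act beside NF-κB at inflammatory genes, and Klf10 was first described as an early gene induced by TGFβ.

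Library totals ran from 34036650 to 44374115 counts. All 10 macrophage markers examined had counts in each group, and their summed level was 32473 to 36742 CPM without either agent, 17788 to 18758 under TGFβ, 35851 to 36886 under Pam3 and 27325 to 28131 under both. Most of that sum was Lyz2 (29814 CPM on average untreated, 15243 with TGFβ). With TGFβ alone 6 of the 10 were called lower and 3 higher, among the latter Siglecf, a marker of alveolar macrophages, at 32.1 ± 2.10 CPM untreated and 300.3 ± 9.98 with TGFβ (SD, n = 3). Markers of hepatocytes summed to at most 0.21 CPM and those of lymphocytes to at most 0.288 CPM in any library, Mpo of neutrophils was at 0 in every group, and Sftpc and Krt18 of epithelium were at 0 in every group. The 6 neutrophil markers summed to 13.1 to 16.9 CPM without TGFβ and to 3.27 to 5.97 CPM with it, most of it S100a8, while S100a9 was higher with TGFβ (0.253 ± 0.236 against 0.993 ± 0.367 CPM; SD, n = 3). The 3 endothelial markers summed to 1.68 to 1.89 CPM untreated, 0.0524 to 0.277 under TGFβ, 1.27 to 2.51 under Pam3 and 0.589 to 0.727 under both. The means of these sums stood in the order of groups of Egr1. As for Atf3, they were lowest with TGFβ alone and intermediate with both agents. The 4 mast cell and basophil markers summed to 0.263 to 1.20 CPM untreated, 0 to 0.0741 under TGFβ, 0.265 to 0.73 under Pam3 and 0 to 0.135 under both. The means of this sum stood in the order of Egr1 as well. Those of the macrophage and neutrophil sums stood in the order of groups of Atf3, Junb and Batf. The remaining marker sums stood in other orders. The 4 epithelial markers summed to 142 to 182 CPM without TGFβ and to 256 to 403 CPM with it, nearly all of it Cdh1, at means of 171 CPM in untreated cells and 394 CPM under TGFβ alone. A list of 7 heat shock genes, a sign of handling stress, summed to 1310 to 1480 CPM without either agent, 1274 to 1423 under TGFβ, 1645 to 1717 under Pam3 and 1746 to 1844 under both. Most of that sum was Hspa8, a chaperone gene that cells keep on, at means of 1157, 1112, 1406 and 1510 CPM in that order. The heat-inducible Hspa1a averaged 3.02 ± 0.549 CPM (SD, n = 3) without either agent, 1.25 ± 0.125 under TGFβ, 3.94 ± 0.249 under Pam3 and 2.89 ± 0.808 under both. Hspa1b averaged 3.97 ± 0.705, 2.01 ± 0.303, 4.22 ± 0.379 and 4.20 ± 1.29 CPM in the same order. Both genes are near-identical copies whose split of reads is uncertain. They were lowest on average under TGFβ alone, as were Fos, Jun, Junb, Atf3, Batf and Egr1. Ribosomal and other RNAs without poly(A) tails (8 rows picked after their values were seen) took 0.185% to 7.75% of a library's counts, and all Pam3+TGFβ libraries were at or below 1.54%. The part of these measures in the results was not tested.

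Promoter sequences are shown because several of these genes moved together and AP-1 genes are known to act on their own promoters. Windows from 250 bases before to 50 bases after the annotated start were read from RefSeq for 8 of the 10 genes (build GRCm38.p6), and Egr1 and Klf10 were not among them. Both strands were searched for the TRE (TGANTCA), the CRE (TGACGTCA), the first bases of the CRE (TGACG, here called the short CRE), the variant AP-1 site known from the Jun promoter (TGACATCA), the EGR site (GCGNGGGCG), the TATA box (TATAAA), the CCAAT box, the STAT site called GAS (TTCNNNGAA), the palindrome that SMAD proteins bind (GTCTAGAC), the NF-κB site and the CArG box, where serum response factor binds. The short CRE and the variant site were added after the windows had been read, and the short CRE is contained in every CRE. The 5 windows below are those of genes described in most detail, 5′ to 3′ on the gene's strand, with each match to a searched motif in capitals.
Jun (chr4:95052173-95052472, minus strand): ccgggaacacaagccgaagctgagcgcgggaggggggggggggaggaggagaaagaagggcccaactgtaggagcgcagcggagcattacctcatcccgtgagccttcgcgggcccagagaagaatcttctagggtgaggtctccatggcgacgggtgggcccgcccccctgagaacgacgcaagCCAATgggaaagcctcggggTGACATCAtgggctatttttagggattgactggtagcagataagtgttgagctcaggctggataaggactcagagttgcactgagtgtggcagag
Junb (chr8:84978699-84978998, minus strand): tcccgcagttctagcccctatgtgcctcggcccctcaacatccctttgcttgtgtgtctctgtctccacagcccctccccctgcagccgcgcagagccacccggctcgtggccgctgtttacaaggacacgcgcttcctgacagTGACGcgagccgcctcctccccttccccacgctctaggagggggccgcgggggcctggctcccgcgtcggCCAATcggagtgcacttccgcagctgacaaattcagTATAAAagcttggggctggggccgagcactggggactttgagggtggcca
Atf3 (chr1:191183284-191183583, minus strand): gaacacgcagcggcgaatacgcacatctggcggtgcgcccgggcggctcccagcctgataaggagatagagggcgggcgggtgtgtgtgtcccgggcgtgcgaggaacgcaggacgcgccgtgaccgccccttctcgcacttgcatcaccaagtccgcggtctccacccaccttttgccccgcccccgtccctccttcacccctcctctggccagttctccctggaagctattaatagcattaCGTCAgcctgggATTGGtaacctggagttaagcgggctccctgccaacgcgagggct
Fos (chr12:85473640-85473939, plus strand): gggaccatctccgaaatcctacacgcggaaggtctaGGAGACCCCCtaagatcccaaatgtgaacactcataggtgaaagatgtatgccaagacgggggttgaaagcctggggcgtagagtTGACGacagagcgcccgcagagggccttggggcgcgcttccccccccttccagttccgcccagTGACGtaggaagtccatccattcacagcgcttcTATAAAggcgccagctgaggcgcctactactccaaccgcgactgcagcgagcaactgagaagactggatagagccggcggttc
Fosl2 (chr5:32136222-32136521, plus strand): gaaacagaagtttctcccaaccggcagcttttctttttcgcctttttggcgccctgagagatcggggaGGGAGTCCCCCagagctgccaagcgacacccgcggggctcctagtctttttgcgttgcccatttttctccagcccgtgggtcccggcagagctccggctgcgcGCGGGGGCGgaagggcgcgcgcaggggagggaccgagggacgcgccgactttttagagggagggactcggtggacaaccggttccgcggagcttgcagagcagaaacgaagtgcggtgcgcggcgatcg
Jun alone among the 8 held the variant site, 45 to 38 bases before its start, and 3.62% of all 32851 promoter windows hold it. The short CRE was in Atf3, Batf, Fos, Fosb and Junb, against 20.8% of all windows. Fos held it in 2 places, the nearer 66 to 62 bases before the start. CCAAT was in the windows of Jun, Junb and Atf3, against 37.4% of all. Fosl2 had an EGR site (5.55% of all windows) and a pair of overlapping NF-κB matches (8.46%), and Fosb held both motifs as well, while Fos held an NF-κB match. TATAAA was in the windows of Fos and Junb, against 13.6% of all. In Fos it lay 33 to 28 bases before the start, while in Junb it began at the annotated start itself. No TRE, CRE, CArG box, GAS site or SMAD palindrome was found in the 8 windows, and these are held by 7.81%, 1.79%, 1.63%, 8.30% and 0.213% of all windows. A match is a stretch of letters and not a measured site.

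With TGFβ in the culture and no Pam3, most of these genes stood lower. Atf3, which encodes a stress-induced factor that often represses inflammatory genes, was 8.71-fold lower, Egr1 11.6-fold, Junb 2.90-fold and Batf 2.20-fold lower. Fosl2 went the other way and rose. Of the 9 tested genes, 7 fell (Fos, Jun, Junb, Jund, Atf3, Batf and Egr1), 1 rose (Fosl2) and Klf10 was not called, which here means that the adjusted p of edgeR's quasi-likelihood test was 0.05 or above. Over all tested genes 51.0% were called in this comparison, 28.1% lower and 22.9% higher. A change of at least 1 in log2 was called for 4 of the 9, against 13.5% of all, and the 6 libraries compared did not overlap for 9 of the 9, against 56.4% of all. Here the median log2 fold change was -0.55 for the 9 genes and -0.01 for all genes. In bulk RNA, fewer cells that carry an mRNA and less of it per cell cannot be told apart.

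The number of these genes with a called Pam3 response was 2 in cells without TGFβ and 6 in cells with it, and calls over all genes were also more frequent with TGFβ. Without TGFβ, 2 of 9 rose, Fos and Fosl2, and none was called lower, where 18.3% of all tested genes were called, 9.62% higher and 8.66% lower, so that the count of members lies near the background. It was 4, with Jun and Batf added, without untreated replicate 2 (18.0% of all called in that fit) or when 10 counts were required in every library (22.3%). None of the 9 had a called change of at least 1 in log2 (1.95% of all), and for 5 the groups did not overlap (31.4% of all). With TGFβ, 6 of 9 rose (Fos, Fosl2, Jun, Junb, Atf3 and Egr1), none was called lower, and 38.5% of all genes were called, 20.4% higher and 18.1% lower. For 3 the change was at least 1 in log2 (7.51% of all), and for 8 the groups did not overlap (50.4% of all). The interaction subtracts the Pam3 change seen in cells without TGFβ from the change seen in cells with it. It was called for 4 of 9 genes, Jun, Junb, Atf3 and Egr1, each with the larger response in TGFβ-treated cells. Of all genes 15.9% had a called interaction, 10.3% with a positive and 5.67% with a negative term. The sign gives the direction of the difference and not which response was larger in size. It was at least 1 in log2 for 3 of the 9, against 3.25% of all. Across the libraries under 2% of RNAs without poly(A) tails (7 of the 12, with 1 library in the TGFβ group and 1 in the Pam3 group, each assumed to vary like the others) the interaction was again called for 4 members, where 5.14% of all genes tested in that fit were called, and the Pam3 response without TGFβ for 1, Fosl2, where 7.52% were.

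**Figure D1:**
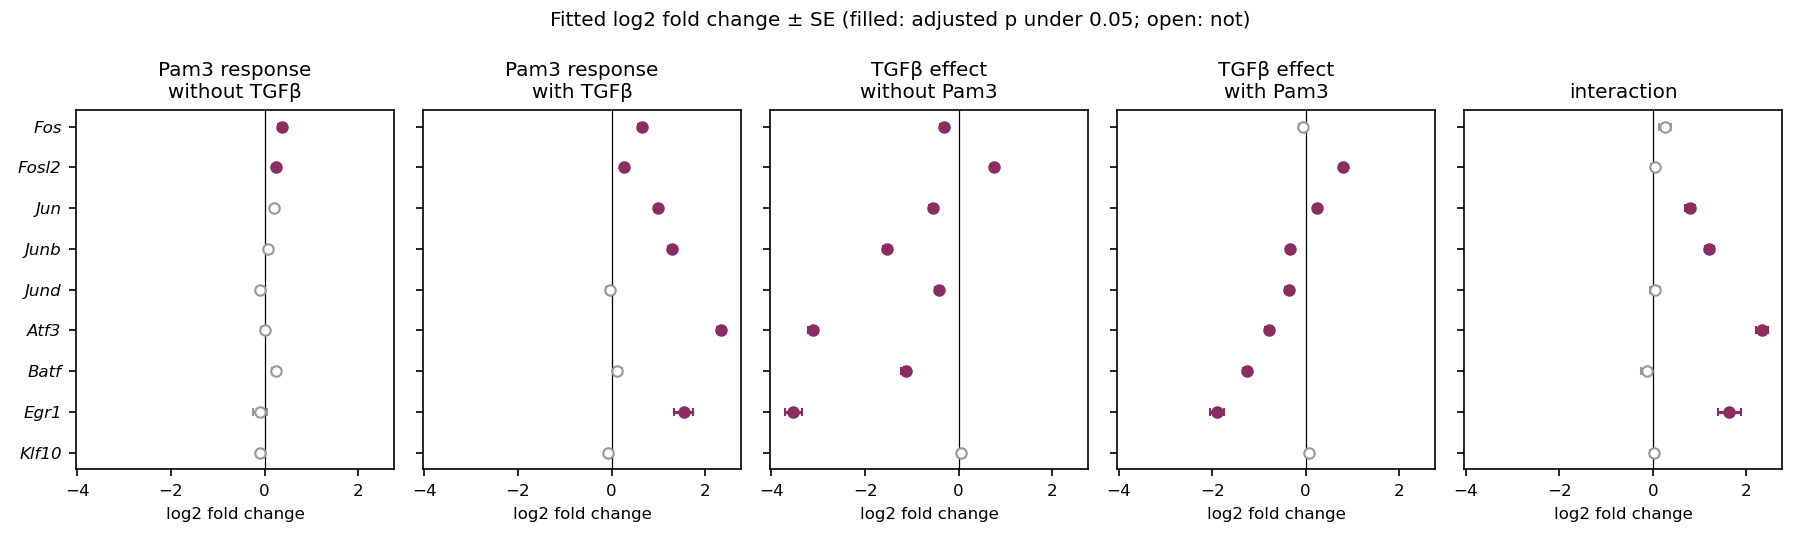
Fitted log2 fold change (x axis) of the 9 tested genes in the 5 comparisons, with bars of 1 SE and filled points for an adjusted p under 0.05. Without TGFβ the Pam3 responses lie between -0.10 and 0.38, with Fos and Fosl2 called, and with TGFβ those of Jun, Junb, Egr1 and Atf3 run from 0.99 to 2.34.

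Among the Jun genes, Junb had the widest range. Junb (chromosome 8, 85701113 to 85705359, minus strand of GRCm39, 1 exon) encodes the Jun family member that often restrains c-Jun. It stood at 121, 148 and 134 CPM in the untreated libraries, 45.7, 44.1 and 48.9 with TGFβ, 134, 135 and 155 with Pam3, and 109, 114 and 114 with both. The TGFβ libraries lay far below all others, the Pam3+TGFβ libraries lay between, and the untreated and Pam3 libraries overlapped. TGFβ alone shifted Junb by -1.54 (log2, SE 0.0693, adjusted p 4.67e-15). Pam3 raised it by 1.28 in the presence of TGFβ (SE 0.069, adjusted p 2.28e-13), while without TGFβ its Pam3 change was 0.07 (SE 0.0667, adjusted p 0.539). The interaction was 1.21 (SE 0.0957, adjusted p 1.54e-09). With both agents it was still lower than with Pam3 alone, by -0.33 (SE 0.0669, adjusted p 0.000269), and over the 7 libraries with few RNAs without poly(A) tails this last difference was -0.24 (adjusted p 0.0575).

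Jun itself encodes c-Jun, the founding AP-1 protein, and the sign of its TGFβ difference depended on Pam3. Jun (chromosome 4, 94937271 to 94940459, minus strand, 1 exon) measured 46.7, 52.3 and 45.7 CPM in the untreated libraries, 34.9, 33.9 and 29.8 in the TGFβ libraries, 54.3, 52.6 and 59.4 in those with Pam3, and 69.2, 65.2 and 61.8 where both were given. Its lowest libraries were those with TGFβ alone and its highest those with both agents, and no 2 of the 4 groups overlapped. TGFβ lowered it by -0.55 without Pam3 (SE 0.0722, adjusted p 4.22e-07) and raised it by 0.24 with Pam3 (SE 0.0707, adjusted p 0.00738). The latter was not called without Pam3+TGFβ replicate 1 (0.19, adjusted p 0.0521). The Pam3 response was 0.99 with TGFβ (SE 0.072, adjusted p 1.91e-11) against 0.20 without it (SE 0.0711, adjusted p 0.0522), an interaction of 0.79 (SE 0.101, adjusted p 1.82e-06). The response without TGFβ lay at the threshold. It was called with no filter (adjusted p 0.0439), with at least 10 counts in every library (adjusted p 0.0336) and with the replicate number in the fit (adjusted p 0.0498). It was also called without untreated replicate 2 (0.26, adjusted p 0.00843), TGFβ replicate 1 (0.20, adjusted p 0.0475) or TGFβ replicate 3 (0.20, adjusted p 0.0386).

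The third Jun gene, Jund, encodes the member that resting cells typically keep on. Jund (chromosome 8, 71151599 to 71153265, plus strand, 1 exon) measured 124, 142 and 120.3 CPM in the untreated libraries, 95.6, 97.5 and 95.5 in the TGFβ libraries, 107, 119 and 135 in those with Pam3, and 87.3, 100.4 and 92.8 where both were given. The libraries with TGFβ were all below those without it, and Pam3 left the groups overlapping. It was lower with TGFβ by -0.42 without Pam3 (SE 0.0745, adjusted p 7.42e-05) and by -0.37 with Pam3 (SE 0.0746, adjusted p 0.000399), and the second value was -0.19 (adjusted p 0.133) over the 7 libraries with few RNAs without poly(A) tails. Its Pam3 changes were -0.10 without TGFβ (SE 0.0742, adjusted p 0.431) and -0.04 with it (SE 0.0747, adjusted p 0.713). Refits without 1 library put the first of these at -0.187 to -0.018 and other settings at -0.306 to -0.067, and none called it (lowest adjusted p 0.0632).

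Per length of transcript, Jund and Junb were close to each other and far above Jun in untreated cells. On this scale, CPM per kilobase of the canonical transcript, Jund stood at 77.3 ± 7.04, Junb at 74.2 ± 7.56 and Jun at 15.1 ± 1.11 (SD, n = 3), and the ranges of Jund and Junb overlapped. With TGFβ, Jund at 57.7 ± 0.656 was above Junb at 25.6 ± 1.37 (SD, n = 3). The share of Junb in the summed level of the Jun genes was 44.5% ± 1.68 untreated, 27.3% ± 1.43 under TGFβ, 46.5% ± 0.921 under Pam3 and 44.8% ± 0.859 under both (SD, n = 3). Jun took 9.09% ± 0.279, 11.0% ± 0.919, 10.4% ± 0.502 and 14.8% ± 1.14 in the same order (SD, n = 3). Bowtie2, which the submitters' processing notes name, does not split reads over introns, so levels per length of genes with several exons may be low beside those of the Jun genes, whose canonical transcripts have 1 exon.

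The Fos side had another balance. Fosl2 (chromosome 5, 32292707 to 32315186, plus strand, 4 exons), which encodes Fra-2, a Fos protein without the strong activation domain of c-Fos, measured 198, 171 and 209.5 CPM in the untreated libraries, 313, 325 and 344 in the TGFβ libraries, 229, 218 and 233 in those with Pam3, and 404, 379 and 402 where both were given. The 4 groups did not overlap, and they stood in the order untreated, Pam3, TGFβ and both. TGFβ raised it by 0.76 without Pam3 (SE 0.0575, adjusted p 1.14e-10) and by 0.80 with Pam3 (SE 0.0575, adjusted p 5.8e-11). Pam3 raised it by 0.23 without TGFβ (SE 0.0574, adjusted p 0.00556), or 0.15 without untreated replicate 2 (adjusted p 0.0198), and by 0.27 with TGFβ (SE 0.057, adjusted p 0.00052). The interaction was 0.04 (SE 0.0808, adjusted p 0.824).

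Fos (chromosome 12, 85520658 to 85524047, plus strand, 4 exons) encodes c-Fos, the immediate early member whose mRNA is among the shortest-lived. It measured 19.8, 23.1 and 21.8 CPM in the untreated libraries, 18.5, 15.1 and 18.2 in the TGFβ libraries, 27.4, 27.9 and 29.1 in those with Pam3, and 26.4, 26.8 and 27.6 where both were given. The Pam3 libraries were all above the others, with or without TGFβ, and the Pam3 and Pam3+TGFβ libraries overlapped. Pam3 raised Fos by 0.38 without TGFβ (SE 0.0843, adjusted p 0.00178) and by 0.64 with it (SE 0.0851, adjusted p 8.92e-07), and the difference of 0.26 was not called (SE 0.12, adjusted p 0.158). Refits without 1 library put that difference at 0.15 to 0.30, other settings put it at 0.13 to 0.47, and none of these refits called it. The Pam3 response without TGFβ was 0.36 with an adjusted p of 0.0834 over the 7 libraries with few RNAs without poly(A) tails. TGFβ alone lowered it by -0.32 (SE 0.0857, adjusted p 0.00259), a call that was lost without TGFβ replicate 2 (-0.21, adjusted p 0.0501).

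Fosb, which encodes a close relative of c-Fos known from brain and bone, was near the limit of detection. It had 0, 5 and 5 counts in untreated cells, 9, 2 and 8 with TGFβ, 5, 7 and 1 with Pam3, and 1, 5 and 11 with both. All groups overlapped at this depth. In a fit without a filter its 5 adjusted p-values ran from 0.587 to 1.00.

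The Fos genes summed here are Fos, Fosb and Fosl2, without Fosl1, which is not among the 10 genes. Fosl2 made up most of that sum per length in each group. Its share of the summed CPM per kilobase was 72.9% ± 3.26 untreated, 85.1% ± 1.56 under TGFβ, 70.9% ± 0.715 under Pam3 and 81.6% ± 0.606 under both (SD, n = 3). The summed level of the Fos genes was 37.9 ± 2.48, 55.1 ± 2.46, 45.8 ± 1.39 and 69.4 ± 2.04 CPM per kilobase in the same order (SD, n = 3), so that it was highest with both agents. That of the Jun genes was 167 ± 14.8, 93.6 ± 0.119, 168 ± 15.7 and 139 ± 4.63 (SD, n = 3), and it was lowest with TGFβ alone. These sums and shares are given as a description, without a test.

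**Figure D2:**
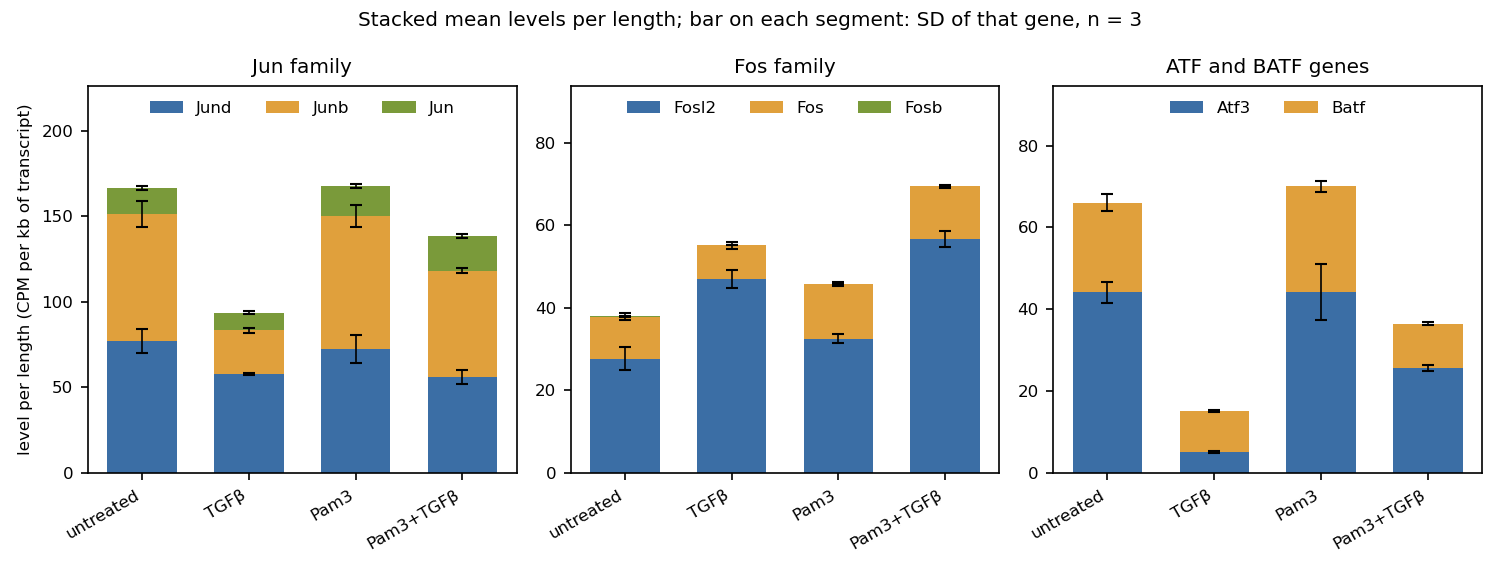
Mean level per length (y axis, CPM per kilobase of canonical transcript) of the Jun genes, the Fos genes (without Fosl1) and of Atf3 and Batf in the 4 groups, stacked, with bars of 1 SD for each gene (n = 3). The Jun sum and the sum of Atf3 and Batf are lowest with TGFβ alone, and the Fos sum, mostly Fosl2, is highest with both agents.

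Atf3 had the largest interaction of the 9 genes. Atf3 (chromosome 1, 190902493 to 190950241, minus strand, 4 exons) measured 82.1, 92.4 and 87.9 CPM in the untreated libraries, 10.2, 10.5 and 9.48 in the TGFβ libraries, 98.0, 92.6 and 72.3 in those with Pam3, and 51.2, 49.2 and 51.7 where both were given. Untreated and Pam3 libraries overlapped, the TGFβ libraries were far below all others, and the Pam3+TGFβ libraries lay between. TGFβ alone shifted it by -3.12 (log2, SE 0.0927, adjusted p 1.18e-17). Pam3 raised it 5.05-fold in TGFβ-treated cells (log2 fold change 2.34, SE 0.0917, adjusted p 3.13e-15), and its change without TGFβ was 0.003 (SE 0.0812, adjusted p 0.988), giving an interaction of 2.33 (SE 0.122, adjusted p 4.9e-12). With both agents it was still lower than with Pam3 alone, by -0.79 (SE 0.0824, adjusted p 4.41e-08).

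Egr1, like Atf3, was lowest with TGFβ alone and intermediate with both agents, at a far lower level. Egr1 (chromosome 18, 34992876 to 34998049, plus strand, 2 exons) encodes a zinc finger factor that is induced by ERK signalling, and it measured 9.18, 9.40 and 8.81 CPM in the untreated libraries, 0.885, 0.691 and 0.786 in the TGFβ libraries, 8.03, 8.17 and 9.40 in those with Pam3, and 2.94, 1.98 and 1.99 where both were given. In counts this was 309 to 391, 28 to 32, 296 to 309, and 74 to 101. Untreated and Pam3 libraries overlapped, and the others did not. TGFβ lowered it by -3.54 without Pam3 (SE 0.182, adjusted p 1.18e-14) and by -1.90 with Pam3 (SE 0.158, adjusted p 1.88e-10). The Pam3 response was 1.54 with TGFβ (SE 0.2, adjusted p 6.68e-07) and -0.10 without it (SE 0.141, adjusted p 0.711), an interaction of 1.64 (SE 0.246, adjusted p 2.09e-05).

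Batf moved with TGFβ and was called for no Pam3 response. Batf (chromosome 12, 85733423 to 85755861, plus strand, 3 exons) encodes a small leucine zipper protein that pairs with Jun proteins and, with IRF4 or IRF8, binds composite sites in immune cells. It measured 20.4, 23.8 and 20.0 CPM in the untreated libraries, 9.93, 9.92 and 9.38 in the TGFβ libraries, 25.1, 24.0 and 26.7 in those with Pam3, and 11.1, 10.2 and 10.6 where both were given. The libraries with TGFβ were all under those without it, by -1.13 without Pam3 (SE 0.0891, adjusted p 5.22e-11) and by -1.25 with Pam3 (SE 0.0884, adjusted p 8.52e-12). The Pam3 libraries stood above the untreated ones without overlap, yet the change of 0.24 was just short of the threshold (SE 0.0846, adjusted p 0.0511), and it was 0.12 with TGFβ (SE 0.092, adjusted p 0.317). The former was called with at least 10 counts in every library (adjusted p 0.0391), and without untreated replicate 2 (0.32, adjusted p 0.00849), Pam3+TGFβ replicate 1 (0.24, adjusted p 0.0482) or Pam3+TGFβ replicate 2 (0.24, adjusted p 0.0465). The interaction of -0.11 was not called (SE 0.125, adjusted p 0.636).

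Klf10 (chromosome 15, 38291703 to 38300959, minus strand, 4 exons), the zinc finger gene known as an early target of TGFβ, stayed between 87.8 and 102.2 CPM in all 12 libraries. Its group means were 96.7 ± 2.56 CPM untreated, 100.5 ± 1.55 under TGFβ, 90.2 ± 3.14 under Pam3 and 95.0 ± 2.50 under both (SD, n = 3). The TGFβ effect was 0.06 without Pam3 (SE 0.0496, adjusted p 0.365) and 0.08 with it (SE 0.0497, adjusted p 0.233), and none of its 5 contrasts was called. With upper-quartile scaling its Pam3 response with TGFβ, -0.08 here (adjusted p 0.217), was -0.14 and called (adjusted p 0.0222).

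**Figure D3:**
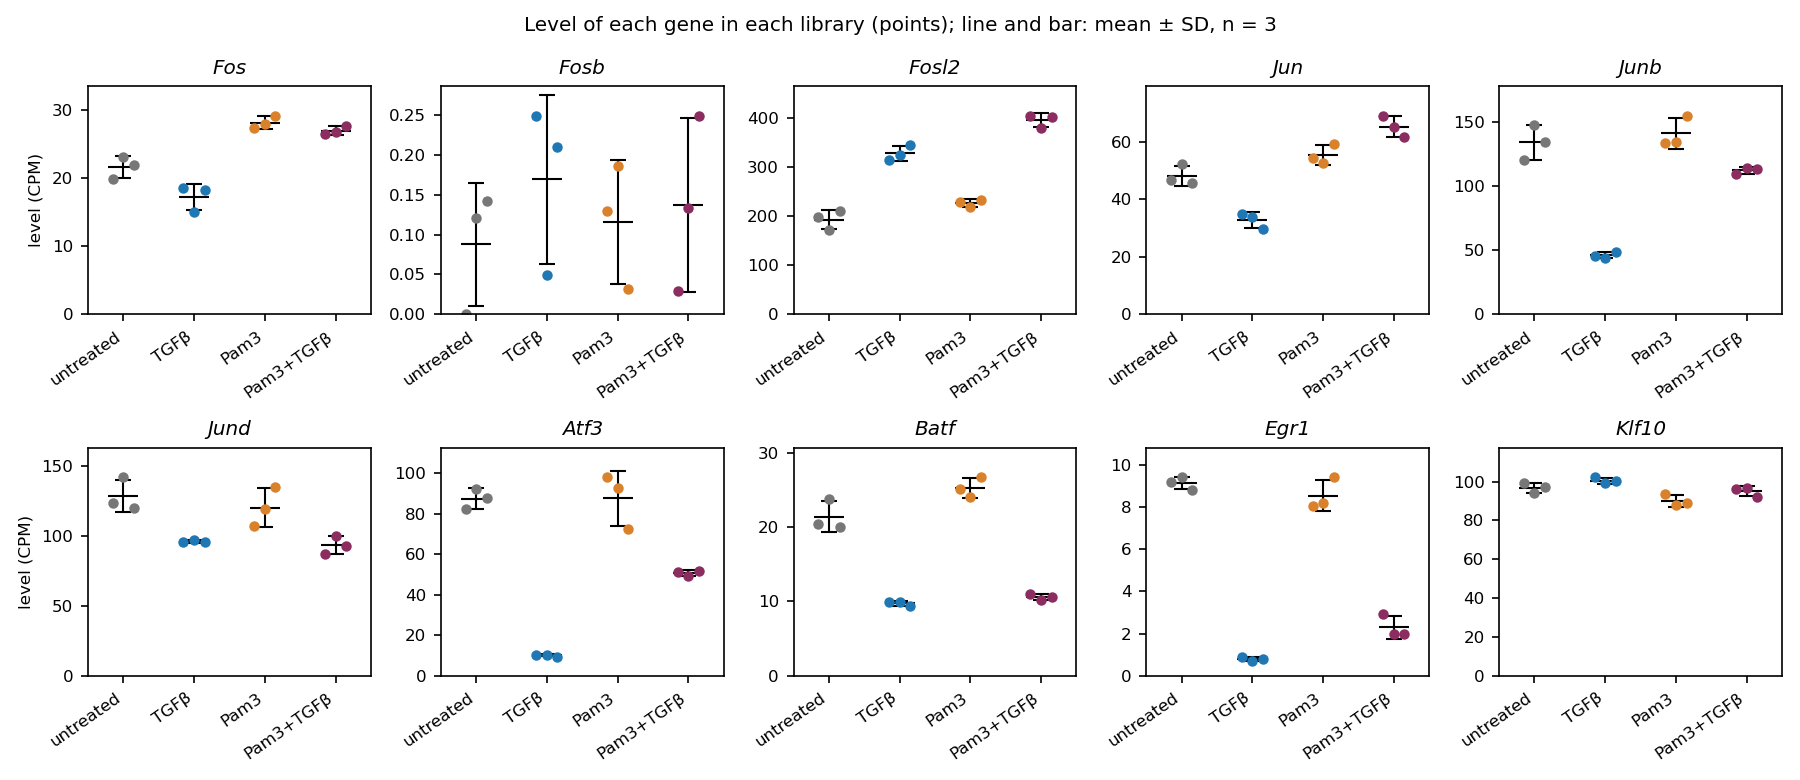
Level (y axis, CPM, from 0) of each of the 10 genes in each of the 12 libraries by group, with the mean and 1 SD (n = 3). Junb, Atf3 and Egr1 are lowest with TGFβ alone and intermediate with both agents, Jun and Fosl2 are highest with both, and Klf10 spans 87.8 to 102.2.

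In the presence of Pam3, TGFβ left 5 of the 9 genes lower (Junb, Jund, Atf3, Batf and Egr1) and 2 higher (Fosl2 and Jun), with Fos and Klf10 not called, where 45.3% of all tested genes were called, 21.5% higher and 23.8% lower. The change was at least 1 in log2 for 2 (11.9% of all), and for 7 the groups did not overlap (55.1% of all). The median log2 fold change was -0.33 for the 9 genes and -0.002 for all. This comparison shares the Pam3+TGFβ libraries with the Pam3 response in TGFβ-treated cells and the Pam3 libraries with the response without TGFβ, so the values are set side by side and not counted as separate evidence. For Atf3, Egr1 and Junb the larger Pam3 response with TGFβ started from a lower level and ended below the level with Pam3 alone. For Jun it started lower and ended higher.

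Several of these genes lie opposite another gene, and the strand setting of the authors' counting is not given in the sources used here. Junos, a long non-coding RNA on the plus strand of chromosome 4 (94927957 to 95056126), spans Jun and shares 528 of the 3189 exon bases of Jun. Its row measured 30.0, 27.3 and 32.3 CPM in the untreated libraries, 77.8, 83.1 and 82.0 in the TGFβ libraries, 39.2, 37.3 and 40.0 in those with Pam3, and 104, 90.6 and 94.7 where both were given. It rose with TGFβ by 1.44 without Pam3 (SE 0.067, adjusted p 1.55e-15) and by 1.31 with it (SE 0.0662, adjusted p 1.05e-14), so that with TGFβ alone Junos was higher and Jun lower. Junos was looked at after its values were seen. Junb overlaps Prdx2 over 1238 bases on the other strand, and Prdx2 had 1451 to 2359 counts in the 12 libraries. Without strand, reads from such pairs cannot be told apart where they overlap.

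**Figure D4:**
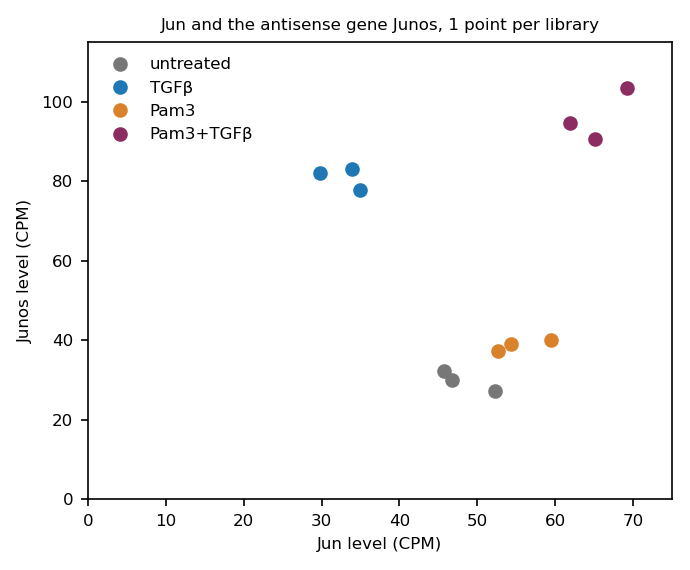
Level of Junos (y axis, CPM) against that of Jun (x axis, CPM), both from 0, 1 point for each of the 12 libraries coloured by group. All 6 libraries with TGFβ are at 77.8 CPM of Junos or above, while their Jun levels are the lowest with TGFβ alone and the highest with both agents.

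Other genes that pair with AP-1 proteins, a list of 20, all tested, showed calls on both sides. With TGFβ alone 5 rose and 11 fell, where 22.9% of all tested genes rose and 28.1% fell, with a median log2 change of -0.25. With Pam3 present TGFβ raised 5 and lowered 8, against 21.5% and 23.8% of all, so that the share that rose lay near the background both times. Maf, the large Maf factor of macrophages, fell with TGFβ from 2.85 ± 0.239 to 0.174 ± 0.107 CPM (SD, n = 3), which is -4.00 in log2 (SE 0.324, adjusted p 9.12e-11). It had only 2 to 9 counts in the libraries with TGFβ alone, so the size of this fall rests on few reads. Maff, a small Maf protein without an activation domain, rose from 15.4 ± 2.14 to 32.0 ± 2.72 CPM (SD, n = 3) and stood at 66.8 ± 2.34 with both agents. Pam3 raised 9 and lowered none without TGFβ (9.62% and 8.66% of all), and raised 13 and lowered 1 (Creb1) with it (20.4% and 18.1%). The interaction was called positive for 7 and negative for 2, Jdp2 and Creb1 (10.3% and 5.67% of all). The interaction of Batf2 was 3.27 (SE 0.529, adjusted p 5.77e-05) and that of Batf3 1.10 (SE 0.25, adjusted p 0.00355), while Jdp2, which represses AP-1 sites, had one of -0.83 (SE 0.143, adjusted p 0.000121). Batf2 had only 1 to 8 counts in the libraries with TGFβ alone, so the size of its term rests on few reads.

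Of 22 other immediate early genes, 19 were tested, and Egr4, Ccn1 and Ccn2 did not pass the filter. TGFβ alone raised 3 and lowered 12 (22.9% and 28.1% of all tested genes), with a median log2 change of -0.72, and with Pam3 it raised 3 and lowered 11 (21.5% and 23.8%). Klf2, a Krüppel-like factor that quiets inflammatory genes, fell from 34.3 ± 3.08 to 4.37 ± 0.725 CPM with TGFβ (SD, n = 3), which is -2.98 in log2 (SE 0.107, adjusted p 8.56e-18). Egr3 was lower by -3.64 in log2 (SE 0.399, adjusted p 2.46e-08), a size that rests on few reads. It had 86 to 109 counts in the untreated libraries and 2 to 13 in those with TGFβ alone. Klf11, the nearest relative of Klf10, rose from 3.84 ± 0.637 to 9.41 ± 0.464 CPM (SD, n = 3), by 1.29 (SE 0.164, adjusted p 3.3e-07). Pam3 raised 1 and lowered 5 without TGFβ (9.62% and 8.66% of all), and raised 4 and lowered 5 with it (20.4% and 18.1%). Ier3, which is induced by NF-κB and protects against cell death, rose by 0.78 and by 1.96 in these conditions (adjusted p 5.62e-07 and 6.64e-14). The interaction was called positive for 6 and negative for 3 (10.3% and 5.67% of all), among them Csrnp1 with 1.21 (SE 0.181, adjusted p 2.02e-05). That of Klf9 was -0.77 (SE 0.162, adjusted p 0.00119), since Pam3 lowered Klf9 by -0.37 without TGFβ and by -1.14 with it.

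Kinases and cofactors that act on AP-1 and EGR proteins, 22 genes and all tested, had 3 called interactions, a share of 13.6% that lies near the 15.9% of all tested genes. Nab1, a corepressor of EGR proteins, had one of 0.56 (SE 0.0834, adjusted p 1.69e-05), Map2k1, which activates ERK, of 0.26 (SE 0.0627, adjusted p 0.00427), and Map2k6, which activates p38, of -1.48 (SE 0.265, adjusted p 0.000205). Map3k8, which passes TLR signals to ERK, rose by 0.72 without TGFβ and by 0.71 with it (adjusted p 6.71e-09 and 1.31e-09). TGFβ alone raised 6 and lowered 7, with a median log2 change of -0.05, and with Pam3 it raised 7 and lowered 7, where 51.0% and 45.3% of all tested genes were called. Pam3 raised 3 and lowered 1 without TGFβ, and raised 9 and lowered 3 with it, where 18.3% and 38.5% of all were called.

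Genes known from other systems as AP-1 targets, a list of 18 of which all but Vegfa were tested (17), had 9 called interactions, all positive, where 10.3% of all tested genes had a positive and 5.67% a negative one. For Plau, which encodes urokinase, the positive term of 0.42 came with a fall under Pam3 without TGFβ (-0.34, adjusted p 0.000277) and a value of 0.08 with it (adjusted p 0.363). Mmp13, a collagenase, averaged 27.7 ± 2.41 CPM untreated, 1.85 ± 0.153 under TGFβ, 18.0 ± 1.44 under Pam3 and 15.7 ± 3.31 under both (SD, n = 3), and the interaction came to 3.70 (SE 0.183, adjusted p 5.15e-13). TGFβ alone raised 6 and lowered 10 (22.9% and 28.1% of all), among them Mmp12, the macrophage elastase, by -4.41 (SE 0.0765, adjusted p 7.92e-24), and Lif, a cytokine of the IL-6 family, by 3.74 (SE 0.107, adjusted p 1.7e-18). With Pam3 present TGFβ raised 6 and lowered 7 (21.5% and 23.8% of all). Pam3 raised 7 and lowered 3 without TGFβ (9.62% and 8.66%), and raised 11 and lowered 1 with it (20.4% and 18.1%). The list was drawn up with earlier results of these data known, and its median interaction was 0.42 against 0.005 for all tested genes. Mmp9 had 0 counts in all 6 libraries with TGFβ, so its fitted values are no bound, and without it the median was 0.67 over 16 genes.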

How the data were processed

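Whole-number read counts per gene symbol were deposited by the authors. The submitters' processing notes name FastQC 0.11.7, Bowtie2 2.4.1, featureCounts of Subread 2.0.0, DESeq2 1.36.0 and the build GRCm39, with no settings. Annotation, strand setting and treatment of multi-mapping reads are not given in the sources used here. A second table, a deposited normalized signal in which each value was the count divided by 1 constant per library, as tested on the files, served 1 alternative only. Genes were kept with filterByExpr (minimum count 10), scaled with TMM and tested with edgeR 4.0.16 (quasi-likelihood, robust, 4 group means, 12 libraries) in R 4.3.3, with Benjamini-Hochberg adjustment over 14749 genes and a threshold of 0.05. The SE is the size of the log2 fold change over the square root of F. CPM uses total counts times the TMM factor. The procedure was tested on simulated counts. DESeq2 1.42.0 and limma 3.58.1 (pseudocount 1) were alternatives. Gene positions and lengths come from GENCODE M39. Members and lists were chosen with earlier results of these data known. Each member is described, and from each other list genes among the 2 largest called changes per contrast and direction, plus the 3 genes most like each member. Deviations from the group means showed no clear pairing of same-numbered libraries, which cannot show that the design was unpaired. Replicates of a group differed by 9.99 to 220 in chi-square per degree of freedom, so none was a copy. Pairs with untreated replicate 3, TGFβ replicate 2 or Pam3 replicate 1 were at 133 to 220. All other pairs, with those of Pam3+TGFβ among them, were at 9.99 to 28.0. The libraries named also stood apart from their groups in the share of RNAs without poly(A) tails, and the reason was not tested.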

Additional observations from a re-analysis of the deposited data

Results flagged for a closer look

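For 4 of the 9 tested genes the change under Pam3 depended on TGFβ, by the interaction term of the fit, where 15.9% of all tested genes were called and 10.3% with a positive term. This difference of responses, on the log2 scale, was 2.33 for Atf3, 1.64 for Egr1, 1.21 for Junb and 0.79 for Jun, with the larger response in TGFβ-treated cells each time. Over the 12 fits that left out 1 library it ran from 2.22 to 2.43 for Atf3, from 1.41 to 1.72 for Egr1, from 1.14 to 1.29 for Junb and from 0.70 to 0.85 for Jun.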

How the results depend on the processing

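The 27 called values of the members kept their direction in all 590 refits and lost the call in 6 of them. These were Fos with TGFβ alone (-0.21 without TGFβ replicate 2 and -0.21 with 3 libraries left out together), Jun with TGFβ in the presence of Pam3 (0.19 without Pam3+TGFβ replicate 1), and, over the 7 libraries with few RNAs without poly(A) tails, Fos with Pam3 (0.36), Junb (-0.24) and Jund (-0.19) with TGFβ in the presence of Pam3. Both of these subsets of libraries were chosen after the data were seen. The number of members called for Pam3 without TGFβ was 2, and it was 4 with at least 10 counts in every library (22.3% of all genes called in that fit), 1 over the 7 libraries (7.52%), and 2 to 4 when a library was left out (13.0% to 18.0%), with 4 without untreated replicate 2 (Jun and Batf added). When a library was left out the other counts ran from 6 to 6 (Pam3 with TGFβ, 31.9% to 40.6% of all genes), 7 to 8 (TGFβ alone, 45.7% to 50%), 6 to 7 (TGFβ with Pam3, 39.5% to 46.7%) and 4 to 4 (interaction, 12.5% to 16.0%). Values that were not called and changed sign were the Pam3 response of Atf3 without TGFβ (-0.014 with upper-quartile scaling, -0.00026 with DESeq2, -0.0037 with limma, -0.0027 with a replicate block, -0.080 with the 3 libraries left out, -0.083 to 0.12 when 1 was left out) and of Junb (-0.0015 over the 7 libraries, -0.0015 to 0.15 when 1 was left out), and the interactions of Fosl2 (-0.0070 with upper-quartile scaling, -0.039 with the 3 left out, -0.045 over the 7, -0.017 to 0.12), Klf10 (-0.026 with upper-quartile scaling, -0.036 over the 7, -0.020 to 0.053) and Jund (-0.016 to 0.15). The cause was not tested. With a replicate block 3 members were called for Pam3 without TGFβ, Jun (0.20) being added (18.7% of all genes), and the block changed no other call of a member. Deviations of same-numbered libraries correlated from -0.17 to 0.30, with 7 of 18 pairs over 0.1, and 5 of 12 libraries correlated best with their own number. With upper-quartile scaling the calls over all genes for Pam3 with TGFβ were 2477 higher and 3489 lower, against 3008 and 2670 here, and for the interaction 1255 and 1097, against 1516 and 836. Depth limits Fosb, at 0 to 11 counts.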

Other observations

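The profile of each member over the 12 libraries was compared with those of the 14748 other tested genes by Pearson r of log2 CPM, as a description. The libraries share their treatments, so a high r can come from the group means alone. The profile most like that of Atf3 was Rasa4 (r = 0.995), with Plekho2 and Plaur (both 0.990) next, and nearest to Junb were Anpep, Plekho2 and Rasa4 (r = 0.992, 0.990 and 0.990). Nearest to Egr1 were Mmp12, Dcstamp and Plk2 (r = 0.994, 0.993 and 0.993). Nearest to Jun were Nus1, Nfkb2 and Slc2a1 (r = 0.986, 0.984 and 0.983), and nearest to Fosl2 were Lrrfip1, Ankrd11 and Junos (r = 0.992, 0.992 and 0.989). Batf was nearest to Klhl5, Mcl1 and Slpi (r = 0.992, 0.991 and 0.991). The nearest profiles were less close for Fos (Gm36551, Acp2 and Heatr6, r = 0.968, 0.960 and 0.959), Jund (Med16, Dtnbp1 and Tom1, r = 0.967, 0.961 and 0.958) and Klf10 (Bach2, Gm34280 and Dnajc9, r = 0.941, 0.919 and 0.912). Among the members, Junb and Atf3 had r = 0.981, Batf and Egr1 0.936, and Fosl2 and Jund -0.914 over the 12 libraries.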
